A study of Xenopus tropicalis with 8 samples.

Results

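The genes described are those of the collagen, laminin, fibrillin, thrombospondin, integrin, metalloprotease and metalloprotease inhibitor families, read in testis tissue of the western clawed frog, Xenopus (Silurana) tropicalis. They were taken by gene symbol, and the symbol pattern also covered lysyl oxidases, fibronectin and sparc, none of which was among the genes named on the array. It found 49 genes on the array. Of these, 39 were kept, whose probe gave a signal well above background on 3 or more of a group's 4 arrays, out of 3844 named genes tested in all. One kept gene, itgb3bp, matched by spelling only, since it encodes a centromere protein and not an integrin.

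Total RNA was read with one-colour Agilent arrays (Cy3) from 2 groups. The finasteride group was testis tissue of juvenile males kept with 5 µM finasteride for 6 h at 26 °C in L-15 medium, on 4 arrays. The control group was testis tissue of juvenile males kept for the same time in the same medium with 0 µM finasteride, on 4 arrays. Finasteride is an inhibitor of steroid 5-alpha-reductase, the enzyme that turns testosterone into dihydrotestosterone. The submitters' design speaks of 8 incubations for each arm; those analysed here are 4 and 4. Nothing in the labels tells if an array holds 1 animal or a pool, or if arrays hold separate animals. The p-values therefore measure the spread between these arrays, which may be technical. The medium held explanted tissue and not living animals, and the tissue was read whole, so that fewer cells of a type and less RNA per cell cannot be told apart.

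The extracellular matrix is a mesh of secreted proteins in which collagens bear tension and laminins, with type IV collagens, form the thin basement membranes under epithelia. Cells hold on to it through integrins, receptors made of an alpha and a beta chain. Metalloproteases of the MMP and ADAMTS families cut matrix proteins, and TIMP proteins block them. In the testis a basement membrane surrounds each seminiferous tubule, with Sertoli cells and spermatogonia on its inner side and contractile peritubular cells outside it.

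Levels are log2 processed intensity minus the array's 75th percentile over all probes, so a level of 0 is that percentile and levels of different genes are not set against each other. The 75th percentile of the processed intensity ranged from 896 to 1798 on finasteride arrays and from 719 to 1686 on control arrays. Between 70.5% and 86.9% of probes were well above background on finasteride arrays and between 73.3% and 77.2% on control arrays, and no probe of the families was saturated. Of the kept genes, 35 were well above background on all 8 arrays. Of 128 listed markers of 5 testis cell classes, 19 were tested, among them the Sertoli marker cldn11, the steroidogenic marker star, the germ cell marker piwil1 and the meiotic marker hormad1, and all 19 were well above background on all 8 arrays. Kidney markers (7 tested) and skeletal muscle markers (4 tested) also were on all 8 arrays, so such detection was not particular to the testis lists. Each of 2 slides held 2 arrays of each group, and finasteride and control arrays never shared a position on a slide, so that treatment and position cannot be told apart.

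No gene of the 39 differed between finasteride and control tissue at a limma adjusted p under 0.05, higher or lower, against 0% of the 25652 probes tested in each direction. None reached an unadjusted p under 0.05 either, against 2.28% of all probes tested higher and 1.72% lower (4.00% in all). In none did all 4 finasteride values lie above or all below the 4 control values, against 1.02% of probes above and 1.06% below, or 2.07% in either direction. The lowest unadjusted limma p among the members was 0.0873 and each adjusted p was 1.00. The log2 difference was above 0 for 17 of 39 genes (43.6%) and for 51.2% of all probes tested. Among the 35 genes well above background on all 8 arrays, it was above 0 for 14 (40%). The median difference was -0.0038 over the members and 0.0063 over all probes tested. When background was instead corrected with normexp, which put the median of all probes at 0.23 on the log2 scale, 36 of 39 were above 0. With those arrays centred again on the median deviation of all probes, an alternative chosen after seeing the data, 16 were.

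The intervals give the sizes that these arrays leave room for. The differences ran from -0.50 for itga4 to 0.66 for mmp13l on the log2 scale, or 0.705-fold to 1.58-fold. None was 2-fold or more, against 1.48% of all probes. The difference was under 1.25-fold for 33 of 39 genes (84.6%), against 82.1% of all probes. The 95% interval lay within 2-fold either way for 33 of 39 genes, against 83.7% of all probes. It lay within 1.5-fold either way for 17 of 39 (43.6%), against 38.9%. These shares lie near those of all probes. The lowest interval bound of any member was -1.10 and the highest 1.45. In tests on simulated data of this size, 2% of probes changed 1.5-fold passed the threshold, 30% of those changed 2-fold and 76% of those changed 4-fold. Each of these changes, and an 8-fold one, was planted in 50 probes together, with independent noise. Calls among planted probes ease the adjusted threshold for the rest, and no probe was called in the data here. The shares may therefore overstate what these arrays could detect.

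**Figure D1:**
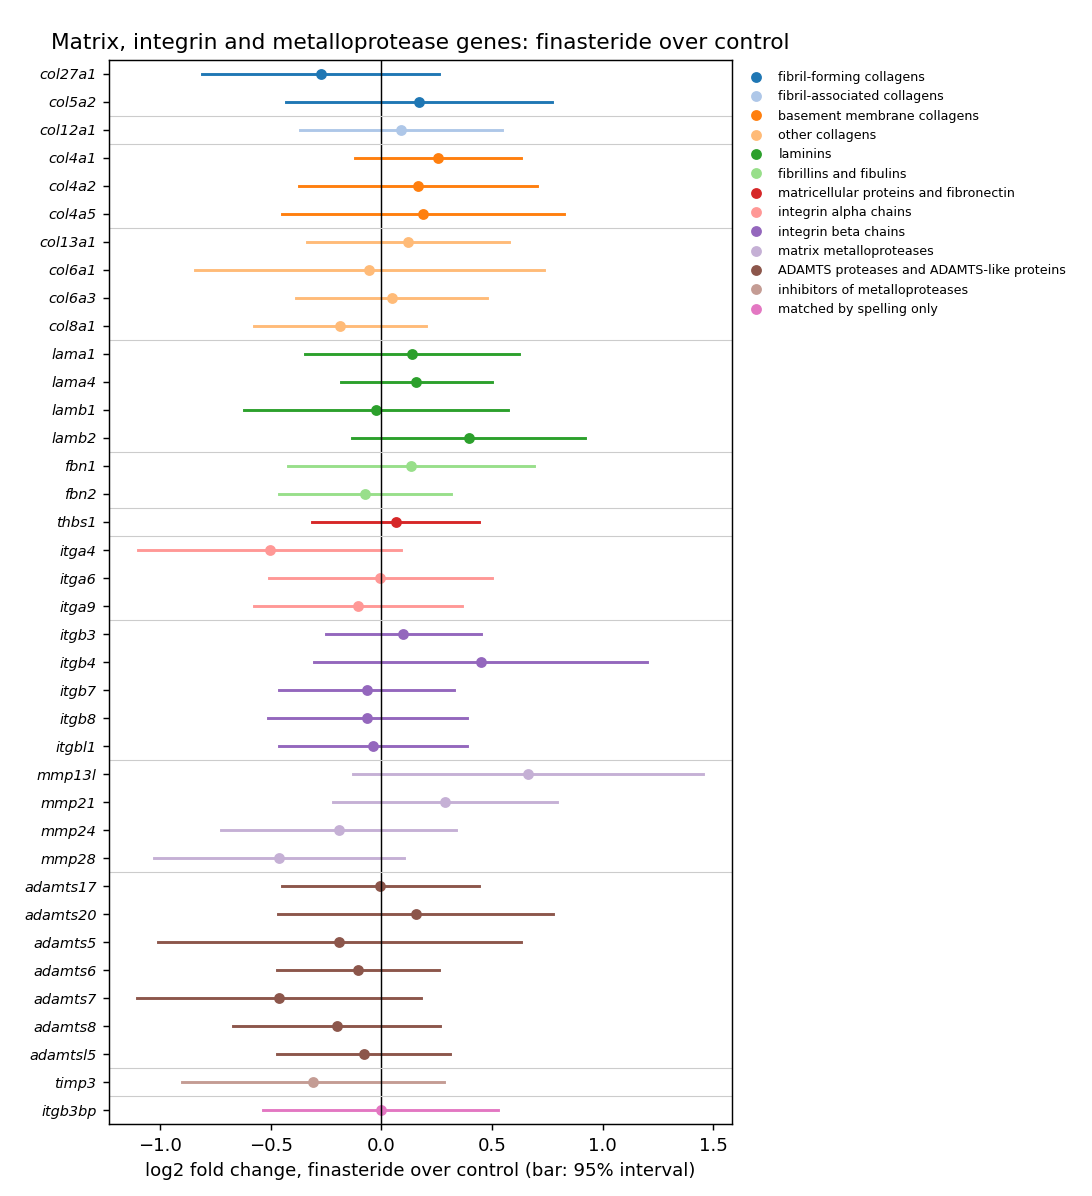
Log2 difference, finasteride minus control, of 38 of the 39 genes by role (points), with 95% limma intervals (bars). The horizontal axis is the log2 difference and 0 is no difference; every interval shown includes 0, and the points run from -0.50 (itga4) to 0.66 (mmp13l).

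The fibril-forming collagens were col5a2, a chain of type V collagen that helps set fibril width, and col27a1, a collagen known from cartilage. Levels of col27a1 were -2.25, -1.47, -1.31 and -1.55 on finasteride arrays 1 to 4, against -1.40, -1.34, -1.73 and -1.02 on control arrays 1 to 4. Finasteride array 1 was the lowest and control array 4 the highest, and the groups overlapped. The difference was -0.27 (95% interval -0.81 to 0.26). For col5a2, named after its values were seen, levels were -1.92, -1.21, -2.22 and -1.57 on finasteride arrays 1 to 4, against -2.04, -1.97, -2.26 and -1.32 on control arrays 1 to 4. The highest values were finasteride array 2 and control array 4, and the difference was 0.17 (95% interval -0.43 to 0.77). The fibril-associated collagen col12a1, which binds along collagen fibrils, differed by 0.09 (95% interval -0.37 to 0.55), and without finasteride array 2 by -0.048.

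The basement membrane collagens were the 3 type IV chains col4a1, col4a2 and col4a5, which assemble into sheet-like networks. Levels of col4a1 were 1.63, 1.43, 1.25 and 1.46 on finasteride arrays 1 to 4, against 1.28, 1.18, 1.39 and 0.90 on control arrays 1 to 4. Finasteride arrays 1, 2 and 4 were above all controls and finasteride array 3 lay among them. The means were 1.44 ± 0.16 with finasteride and 1.19 ± 0.21 in controls (SD, n = 4 each), a difference of 0.26 (95% interval -0.12 to 0.63). For col4a2, levels were -0.20, 0.17, -0.94 and -0.72 on finasteride arrays 1 to 4, against -0.53, -0.59, -0.69 and -0.54 on control arrays 1 to 4. Finasteride arrays 1 and 2, both on slide 2, were above all controls, and finasteride arrays 3 and 4, both on slide 1, were below them. The difference of col4a2 was 0.17 (95% interval -0.37 to 0.70) over all arrays, -0.27 within slide 1 and 0.60 within slide 2. The SD of col4a2 was 0.50 among finasteride arrays and 0.074 among controls. Levels of col4a5 were 1.31, 0.90, 0.03 and 1.13 on finasteride arrays 1 to 4, against 0.62, 0.64, 0.31 and 1.04 on control arrays 1 to 4. Finasteride array 3 was the lowest of the 8 and finasteride array 1 the highest, and the difference was 0.19 (95% interval -0.45 to 0.82). All 3 type IV chains had a difference above 0 with the intensities as processed, 1 of 3 had within slide 1, and 1 of 3 had after normexp with each array centred on its median deviation.

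The other collagens were col6a1 and col6a3, chains of the beaded filaments of type VI collagen, the network-forming col8a1 and the transmembrane collagen col13a1. Levels of col6a1 were -0.06, 0.58, -0.82 and 0.19 on finasteride arrays 1 to 4, against -0.09, 0.08, -0.65 and 0.77 on control arrays 1 to 4. This gene had the third-largest within-group spread of the members, with array 3 lowest in each group. No label pairs arrays of the same number, for this gene or for those below. The means were -0.03 ± 0.59 with finasteride and 0.03 ± 0.58 in controls (SD, n = 4 each), and the difference was -0.05 (95% interval -0.84 to 0.73). For col8a1, levels were -0.81, -0.21, -0.73 and -0.70 on finasteride arrays 1 to 4, against -0.54, -0.48, -0.35 and -0.33 on control arrays 1 to 4. Finasteride array 2 was the highest and the other finasteride arrays were below every control, a difference of -0.19 (95% interval -0.58 to 0.20). Differences of col6a3 and col13a1 were 0.047 and 0.12.

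Laminins are secreted as trimers of different chains, which assemble into sheets. Levels of lamb2, a beta chain of many mature basement membranes, were -4.20, -4.29, -5.16 and -4.65 on finasteride arrays 1 to 4, against -4.93, -5.00, -5.27 and -4.68 on control arrays 1 to 4. Finasteride arrays 1, 2 and 4 were above all controls and finasteride array 3 was below 3 of the 4 controls. The means were -4.57 ± 0.43 with finasteride and -4.97 ± 0.24 in controls (SD, n = 4 each). The difference was 0.39 (95% interval -0.13 to 0.92), 0.059 within slide 1 and 0.73 within slide 2, with an unadjusted limma p of 0.126.

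The alpha chains kept were lama1 and lama4, the second known from vessel and muscle basement membranes. Levels of lama4 were -0.13, 0.29, 0.04 and 0.09 on finasteride arrays 1 to 4, against -0.14, -0.16, 0.03 and -0.07 on control arrays 1 to 4, the smallest within-group SD of the members (0.136). The groups overlapped, with finasteride array 1 among the controls, and the difference was 0.16 (95% interval -0.18 to 0.50). For lama1, levels were -0.55, -0.09, 0.12 and -0.73 on finasteride arrays 1 to 4, against -0.38, -0.49, -0.25 and -0.67 on control arrays 1 to 4, a difference of 0.14 (95% interval -0.34 to 0.62). The difference of the beta chain lamb1 was -0.02 (95% interval -0.62 to 0.57).

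Fibrillins form the microfibrils that carry elastic fibres. Levels of fbn1 were -0.27, 0.41, -0.49 and 0.03 on finasteride arrays 1 to 4, against -0.64, -0.04, -0.38 and 0.20 on control arrays 1 to 4. Finasteride array 2 was the highest and control array 1 the lowest, and the difference was 0.14 (95% interval -0.42 to 0.69). The difference of fbn2 was -0.074. Thrombospondin 1 (thbs1), a secreted protein that modulates contacts between cell and matrix, had levels of 1.38, 1.47, 1.22 and 1.75 on finasteride arrays 1 to 4, against 1.32, 1.37, 1.27 and 1.59 on control arrays 1 to 4. Array 4 was highest in each group, and the difference was 0.06 (95% interval -0.31 to 0.44). Its probe carries the word xhyb in its name, as do those of adamtsl5 and itgb3bp, and no check was made of whether other transcripts bind it.

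**Figure D2:**
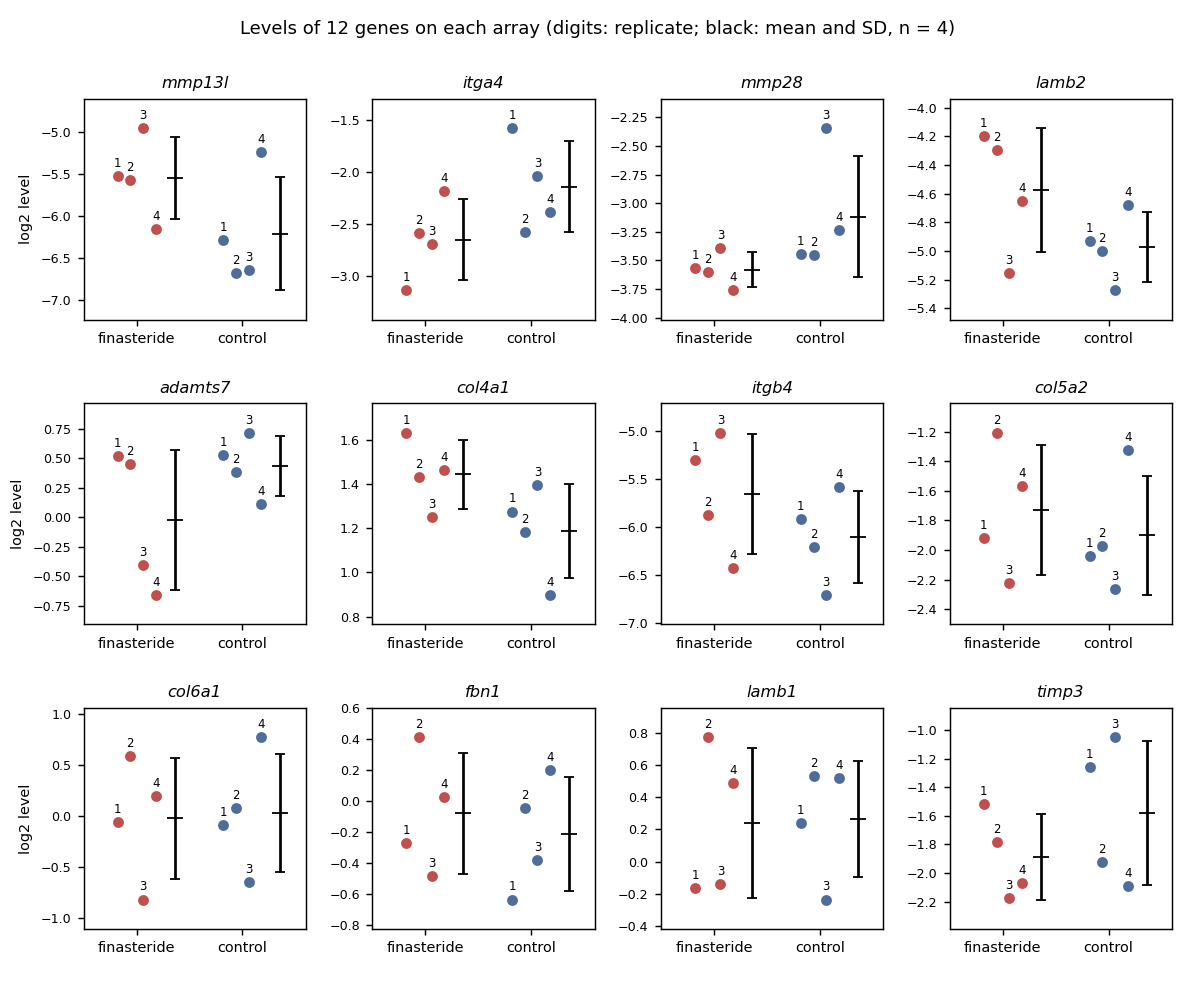
Level (log2 processed intensity minus the array's 75th percentile) of 12 genes, with finasteride arrays on the left (red) and control arrays on the right (blue) of each panel, digits giving the replicate and black bars the mean and SD (n = 4). The groups overlap in every panel, and for adamts7 finasteride arrays 3 and 4 (-0.40 and -0.66) lie below all controls while arrays 1 and 2 lie among them.

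The integrin alpha chains kept were itga4, itga6 and itga9. Levels of itga4, the alpha chain of leukocyte receptors for fibronectin and VCAM, were -3.13, -2.58, -2.69 and -2.18 on finasteride arrays 1 to 4, against -1.58, -2.57, -2.04 and -2.38 on control arrays 1 to 4. Finasteride arrays 1 and 3 were below all controls, finasteride array 2 was level with control array 2, the lowest control, and finasteride array 4 lay among the controls. The means were -2.65 ± 0.39 with finasteride and -2.14 ± 0.44 in controls (SD, n = 4 each). The difference was -0.50 (95% interval -1.10 to 0.09), the lowest of the members, with an unadjusted limma p of 0.0873. Of the leukocyte markers, 4 of 5 tested had a difference above 0 (median 0.087), and none passed the test. Among these 4, cd74 (0.47) passed the filter through the finasteride arrays alone, the group in which it was higher. The marker below 0 was vav1 (-0.55). Whether itga4 follows leukocyte content was not tested. The laminin receptor chain itga6 differed by -0.0037 (95% interval -0.51 to 0.50). The third, itga9, a chain of a tenascin receptor, differed by -0.11.

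The integrin beta chains kept were itgb3, itgb4, itgb7, itgb8 and the related secreted protein itgbl1. Levels of itgb4, which pairs with itga6 in hemidesmosomes, were -5.30, -5.88, -5.01 and -6.42 on finasteride arrays 1 to 4, against -5.92, -6.20, -6.70 and -5.58 on control arrays 1 to 4. It was well above background on 3 of 4 finasteride arrays and on 0 of 4 control arrays, so it was kept through the finasteride arrays alone. Finasteride arrays 2 and 4 were below control array 4, so the groups overlapped. Its control signals were not well above background, so the control level is uncertain. Raising them to at least the dimmest signal well above background left the control mean at -6.10. The means were -5.65 ± 0.63 with finasteride and -6.10 ± 0.48 in controls (SD, n = 4 each), and the fitted difference was 0.45 (95% interval -0.30 to 1.20) with a limma p of 0.212 unadjusted and 1.00 adjusted. Levels of itgb3, a chain of receptors for vitronectin and fibrinogen, were -3.54, -3.44, -3.46 and -3.82 on finasteride arrays 1 to 4, against -3.69, -3.73, -3.76 and -3.49 on control arrays 1 to 4. Its within-group SD, 0.152, was the second-smallest of the members, and the difference was 0.10 (95% interval -0.25 to 0.45). Differences of itgb7, known from lymphocyte homing, itgb8, which takes part in activating latent transforming growth factor beta, and itgbl1 ran from -0.066 to -0.037.

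Of the matrix metalloproteases, mmp28 and mmp13l had the lowest p. Levels of mmp28, known as epilysin and abundant in mammalian testis, were -3.57, -3.60, -3.39 and -3.76 on finasteride arrays 1 to 4, against -3.44, -3.45, -2.34 and -3.24 on control arrays 1 to 4. Control array 3 was far above the rest at -2.34, and the 7 others lay between -3.76 and -3.24. The means were -3.58 ± 0.15 with finasteride and -3.12 ± 0.53 in controls (SD, n = 4 each), a difference of -0.46 (95% interval -1.03 to 0.10) with an unadjusted limma p of 0.0972, and -0.20 without control array 3. Levels of mmp13l, named for its likeness to a collagenase, were -5.53, -5.57, -4.95 and -6.15 on finasteride arrays 1 to 4, against -6.29, -6.68, -6.65 and -5.24 on control arrays 1 to 4. It was well above background on 3 of 4 finasteride arrays and 1 of 4 control arrays. Control array 4 was the second-highest of the 8. The means were -5.55 ± 0.49 with finasteride and -6.21 ± 0.68 in controls (SD, n = 4 each), and the difference was 0.66 (95% interval -0.13 to 1.45) with an unadjusted limma p of 0.0909. The gene passed the filter through the finasteride arrays alone, the group in which it was higher.

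For mmp21, a secreted protease known for its part in left-right patterning in mammals, levels were -4.34, -3.94, -3.46 and -4.30 on finasteride arrays 1 to 4, against -4.33, -4.37, -4.50 and -3.99 on control arrays 1 to 4. Finasteride arrays 2 and 3 were above all controls and the other finasteride arrays lay among them, a difference of 0.29 (95% interval -0.22 to 0.79). Levels of the membrane-bound protease mmp24 were 0.39, 0.82, 0.99 and 0.09 on finasteride arrays 1 to 4, against 0.83, 0.90, 1.01 and 0.34 on control arrays 1 to 4. Array 4 was lowest in each group, and the difference was -0.19 (95% interval -0.72 to 0.34).

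ADAMTS proteases are secreted and cut proteoglycans and other matrix proteins. Levels of adamts7, which degrades cartilage oligomeric matrix protein in mammals, were 0.52, 0.45, -0.40 and -0.66 on finasteride arrays 1 to 4, against 0.53, 0.39, 0.72 and 0.12 on control arrays 1 to 4. Finasteride arrays 1 and 2 (slide 2) lay among the controls, and finasteride arrays 3 and 4 (slide 1) lay below all 4 controls. The means were -0.02 ± 0.60 with finasteride and 0.44 ± 0.25 in controls (SD, n = 4 each). The difference was -0.46 (95% interval -1.10 to 0.18) over all arrays, with an unadjusted limma p of 0.141, -0.99 within slide 1 and 0.068 within slide 2. Among controls, the arrays of slide 1 were at 0.53 and 0.39 and those of slide 2 at 0.72 and 0.12.

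Levels of adamts8 were -1.67, -1.22, -1.37 and -1.58 on finasteride arrays 1 to 4, against -1.20, -1.25, -1.73 and -0.86 on control arrays 1 to 4, with control array 4 the highest and a difference of -0.20 (95% interval -0.67 to 0.27). For adamts6 they were -0.94, -0.66, -0.55 and -0.81 on finasteride arrays 1 to 4, against -0.76, -0.41, -0.79 and -0.59 on control arrays 1 to 4. The adamts6 probe had the third-smallest within-group SD (0.173), and the difference was -0.11 (95% interval -0.47 to 0.26). The aggrecan-cutting adamts5 had levels of -6.02, -5.05, -5.39 and -6.03 on finasteride arrays 1 to 4, against -5.37, -5.17, -6.44 and -4.74 on control arrays 1 to 4. It had the largest within-group SD of the members (0.616) and was well above background on 3 finasteride arrays and 2 control arrays. The difference was -0.19 (95% interval -1.01 to 0.63) and became 0.039 without control array 4. The ADAMTS-like protein adamtsl5, which lacks a protease domain and was read from an xhyb probe, differed by -0.08 (95% interval -0.47 to 0.31). The remaining members adamts17 and adamts20, the second a versican-cutting protease in mice, differed by -0.0038 and 0.16. The ADAMTS differences were above 0 for 1 of 7 genes (median -0.11), and for 4 of 7 after normexp with arrays centred.

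The inhibitor timp3, which stays bound to the matrix and blocks both MMP and ADAMTS proteases, had levels of -1.51, -1.79, -2.18 and -2.07 on finasteride arrays 1 to 4, against -1.26, -1.92, -1.05 and -2.09 on control arrays 1 to 4. Control arrays 1 and 3 were high and control arrays 2 and 4 low, and finasteride array 3 was the lowest of the 8. The means were -1.89 ± 0.30 with finasteride and -1.58 ± 0.50 in controls (SD, n = 4 each), a difference of -0.31 (95% interval -0.90 to 0.29). The centromere protein itgb3bp, the match by spelling, had levels of -1.01, -1.02, -0.63 and -1.54 on finasteride arrays 1 to 4, against -0.77, -0.85, -1.05 and -1.52 on control arrays 1 to 4. The groups overlapped, and the difference was -0.0027 (95% interval -0.53 to 0.53). A second itgb3bp probe gave -0.041.

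With the intensities as processed, single arrays departed from the rest across many of the genes at once. On finasteride array 2, 31 of the 39 genes were above their own mean over the 8 arrays (79.5%), against 48.5% of all probes tested. On finasteride array 4, 12 were (30.8%), against 43.4% of all probes. On control array 4, 27 were (69.2%), against 57.0%. The median deviation of the members from their own means was 0.14 on finasteride array 2, -0.14 on finasteride array 4 and 0.13 on control array 4. Over all probes it was -0.0089, -0.059 and 0.057 on those arrays. The departures of all of these arrays depended on the scaling. Over 14 alternative settings, including one chosen after seeing the data, the members' median on control array 4 ran from 0.0013 to 0.85. The lowest came from the authors' deposited table and the highest from normexp, where all probes were at 0.80. It ran from -0.34 (normexp) to 0.16 on finasteride array 2 and from -0.16 to 0.77 (normexp) on finasteride array 4. The 39 genes share each array's labelling and scaling, so they are not separate observations, and no test was made.

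**Figure D3:**
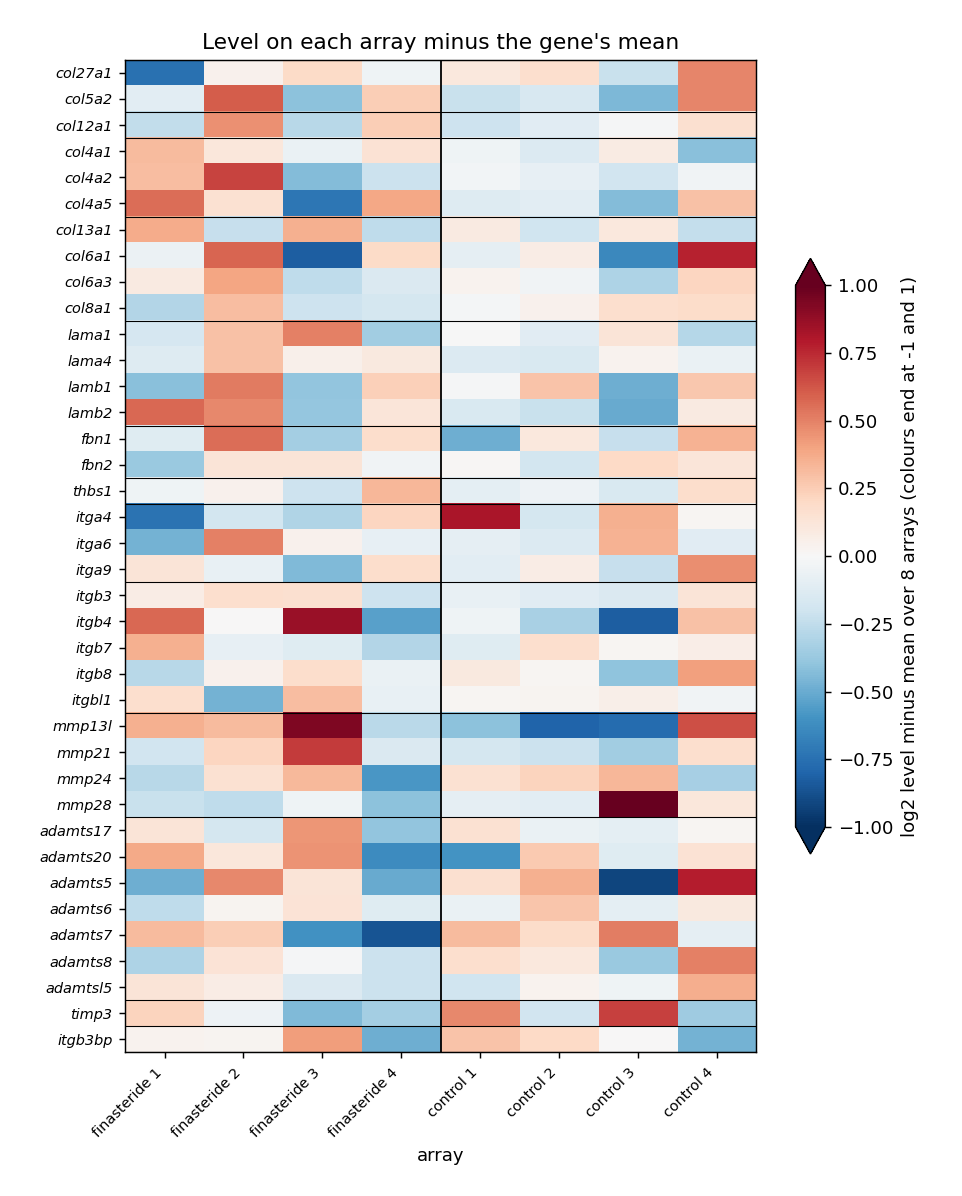
Level of 38 of the 39 genes minus the gene's own mean over the 8 arrays (log2, colour), with finasteride arrays on the left, control arrays on the right and genes ordered by role. Over all 39 genes, 31 are above their means on finasteride array 2, 12 on finasteride array 4 and 27 on control array 4. After normexp with arrays centred these counts are 22, 20 and 20, and the highest is 23 on control array 1.

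The arrays were also read by class, in a grouping into 3 classes made after the values were seen. Of the 18 collagens, laminins, fibrillins and thbs1, 17 were above their own mean on finasteride array 2, 10 on finasteride array 4 and 12 on control array 4. On finasteride arrays 1 and 3 and on control arrays 1, 2 and 3 between 5 and 7 of the 18 were. Of the 12 proteases and timp3 together, 9 were above their mean on finasteride array 2, 0 on finasteride array 4 and 9 on control array 4. The 8 integrin chains showed 2 to 6 above the mean on each array. Normexp on the median spot signals, a setting that changes signal, background correction and offset together, moved whole arrays: the median deviation of all probes was -0.45 on finasteride array 2, 0.72 on finasteride array 4 and 0.80 on control array 4. With those shifts removed by centring, the members' median deviation was 0.13 on finasteride array 2, 0.076 on finasteride array 4 and 0.078 on control array 4, against 0.031, 0.031 and 0.030 over all probes. The counts above the own mean were then 22, 20 and 20 of 39. The median of finasteride array 2 thus kept its size with a lower count but no longer stood apart. The members' median was then 0.11 on control array 2 and 0.097 on control array 1, with 21 and 23 genes above their means. The median of finasteride array 4 turned in sign. Structural genes had a difference above 0 in 12 of 18 (median 0.10), but in 7 of 18 (median -0.029) without finasteride array 2 and in 5 of 18 (median -0.095) after normexp with arrays centred. Integrin chains had one in 2 of 8 (median -0.050), in 4 of 8 without finasteride array 1 (median -0.039), without finasteride array 4 (median 0.00098) or without control array 4 (median -0.0047), and in 4 of 8 (median 0.0074) after that setting. The proteases with timp3 had one in 3 of 12 (median -0.15), and in 1 of 9 (median -0.19) among those well above background on all arrays. They had one in 6 of 12 (median -0.033) without control array 4, and in 7 of 12 (median 0.13) after normexp with arrays centred. The order of the classes thus turned, and no difference between them was tested. By role, the differences after that setting were above 0 for 1 of 3 type IV collagens, 0 of 3 integrin alpha chains, 4 of 5 integrin beta chains, 3 of 4 matrix metalloproteases and 4 of 7 ADAMTS genes.

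**Figure D4:**
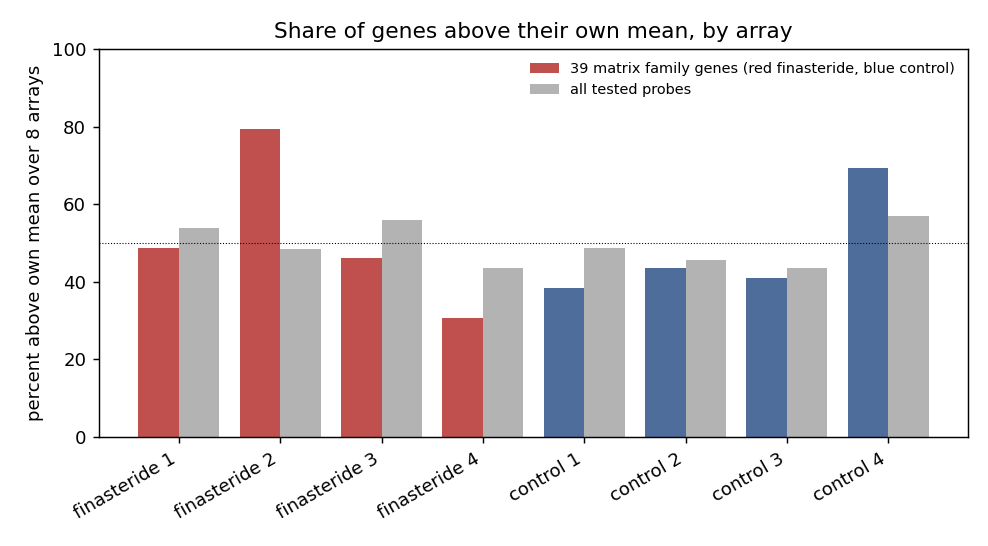
Bars give the share of the 39 genes (red for finasteride, blue for control) and of all probes tested (grey) above their own mean over the 8 arrays, in percent, on each finasteride array (left) and control array (right). The members are at 79.5% on finasteride array 2, 30.8% on finasteride array 4 and 69.2% on control array 4, while all probes stay between 43.4% and 57.0%.

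Markers of the cells that make matrix were read beside this pattern. The median deviation of the 3 peritubular and smooth muscle markers tested (des.2, lmod1 and myocd, of 17 listed) ranged from -0.26 to 0.24 on finasteride arrays and from -0.35 to 0.17 on control arrays. It was 0.24 on finasteride array 2 and -0.35 on control array 4. The 2 fibroblast markers tested (thy1 and foxf1, of 21 listed) ranged from -0.19 to 0.38 on finasteride arrays and from -0.20 to 0.34 on control arrays, with -0.072 on finasteride array 2 and 0.34 on control array 4. The 5 endothelial markers ranged from -0.13 to 0.43 on finasteride arrays and from -0.15 to 0.51 on control arrays, with 0.070 on finasteride array 2 and 0.51 on control array 4. On finasteride array 4, where the members' median was -0.14, the marker medians were 0.18 (peritubular), 0.38 (fibroblast) and 0.43 (endothelial). The part of these markers in the array pattern was not tested.

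The spread between arrays was also described by group. The SD was larger among finasteride arrays than among control arrays for 27 of 39 genes (69.2%), against 71.2% of all probes tested. The median SD of the members was 0.36 among finasteride arrays and 0.25 among control arrays, close to 0.35 and 0.23 over all probes. The larger spread of the finasteride arrays was thus about as frequent in these families as on the whole array.

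Between slides, no member differed at a limma adjusted p under 0.05 with group in the model, against 0% of all probes, and none at an unadjusted p under 0.05, against 1.91% of all probes (1.19% higher and 0.721% lower). The members with the lowest p for slide 2 minus slide 1 were adamts7 at 0.49, col4a2 at 0.38 and adamtsl5 at 0.26, with unadjusted limma p of 0.0893, 0.120 and 0.152.

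Other genes of the matrix were read from 6 lists. None of the 65 genes tested passed the limma adjusted p, 32 had a difference above 0, and 1 (1.54%) had an unadjusted p under 0.05, against 4.00% of all probes. In collagen processing, 5 of 9 were above 0 (median 0.0043). The genes of lowest p there were p3h2, a collagen prolyl 3-hydroxylase, at -0.42 (95% interval -0.87 to 0.031), the lysyl hydroxylase plod2 at -0.48 (-1.08 to 0.11) and the procollagen protease bmp1 at -0.084. In proteoglycans and hyaluronan, 3 of 9 were above 0 (median -0.085), with the lowest p in hapln2 (-0.65), which links hyaluronan to proteoglycans, and the glypicans gpc5 (-0.24) and gpc4 (0.18). In cell-matrix adhesion, 4 of 10 were above 0 (median -0.10), with the lowest p in the collagen receptor ddr1 at -0.48 (-0.98 to 0.016), the small GTPase rap1a at -0.23 and the actin cross-linker flnb at 0.24.

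In the list of other matrix glycoproteins, 9 of 19 were above 0 (median -0.00066). The one gene of the 6 lists with an unadjusted p under 0.05 was efemp1, a fibulin (fibulin-3) whose symbol lies outside the pattern. Its levels were -5.41, -4.96, -5.99 and -6.00 on finasteride arrays 1 to 4, against -7.27, -6.97, -6.67 and -5.76 on control arrays 1 to 4. It was well above background on 3 of 4 finasteride arrays and 0 of 4 control arrays, and control array 4 overlapped with the finasteride values. The probe was tested through the finasteride arrays alone, the group in which it was higher, so its p is no support for a difference. With control signals raised to at least the dimmest signal well above background, the finasteride mean was 1.81-fold the control mean. That ratio leaves out the spread between arrays and is no lower bound on a difference. The fitted difference was 1.07 (95% interval 0.29 to 1.85), with a limma p of 0.0121 unadjusted and 1.00 adjusted. The basement membrane protein frem1 followed at -0.68 and the endothelial glycoprotein mmrn2 at -0.60, with intervals that include 0.

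In the plasminogen system and other proteases, 4 of 7 were above 0 (median 0.076), with the lowest p in the serine protease htra3 at 0.38, klkb1 at -0.22 and plasminogen (plg) at 0.23. In the transforming growth factor beta pathway, a main inducer of matrix genes, 7 of 11 were above 0 (median 0.020), with the lowest p in smad4.1 at 0.31, the inhibitory smad7 at -0.33 and smurf1 at -0.26. Of these, smad4.1 was well above background on 3 arrays of each group, and smad7 on 3 finasteride and 4 control arrays. Among the named genes of the lists, smad4.1, bmp1 and rap1a were read from xhyb probes. Among 15 marker lists, 32 of 60 genes tested had a difference above 0 and none passed the adjusted test. At an unadjusted p under 0.05 were 5 of 60, against 4.00% of all probes: krt18.2 at 0.69, sox17b.2 at 0.53, epb41 at 1.26, fgg at 0.58 and slc12a3 at -0.74, named after their values were seen. The groups did not overlap for 5 of 60, against 2.07% of all probes, namely krt18.2, epb41, fgg, slc12a3 and spata6. Of these, epb41 was well above background on 4 finasteride arrays and 1 control array, and epb41 and fgg were read from xhyb probes. The share above 0 was 3 of 5 for Sertoli, 1 of 4 for steroidogenic, 3 of 3 for peritubular, 1 of 2 for fibroblast, 1 of 2 for spermatogonial, 0 of 2 for meiotic and 6 of 6 for spermatid markers. It was 1 of 5 for endothelial, 4 of 5 for leukocyte, 2 of 5 for blood cell, 3 of 4 for skeletal muscle, 2 of 4 for cartilage and bone, 1 of 1 for fat body, 3 of 7 for kidney and 2 of 6 for liver markers. The leukocyte marker cd74, the cartilage marker hapln1 and the blood cell marker epb41, all above 0, passed the filter through the finasteride arrays alone. The p of epb41 and the separation of its groups are therefore no support for a difference.

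The 10 genes not kept were dim. Adamtsl4, col21a1, fbln7, itga1, itga8 and mmp8 were not well above background on any array. The sheddase adam10 was well above background on 2 finasteride arrays and 1 control array. The others, itgad on 1, the gelatinase mmp9.2 on 2 and col8a2 on 2, were so on finasteride arrays alone. Just inside the filter, with 3 finasteride arrays well above background, were itgb4, mmp13l, adamts20 and adamts5, all kept through the finasteride arrays alone. The share of all probes kept this way was not counted. On finasteride arrays 1 to 4, 78.0%, 82.4%, 86.9% and 70.5% of all probes were well above background, against 73.3% to 77.2% on control arrays. Such detection is thus not shown to be particular to these genes. Where the filter was left out, none of the 49 genes passed the adjusted limma test and 3 (6.12%) had an unadjusted p under 0.05, against 4.60% of all probes without the filter, namely mmp9.2 (0.00377), col8a2 (0.0138) and itga8 (0.0362), with adjusted p of 0.947 or above. Levels of mmp9.2 were -6.81, -6.10, -5.94 and -7.27 on finasteride arrays 1 to 4, against -7.48, -7.93, -7.80 and -7.48 on control arrays 1 to 4. All 4 finasteride values lay above the 4 control values, at signals that on 6 of the 8 arrays were not well above background, so no fold is given.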

How the data were processed

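Per the file headers, the deposited spot intensity and spot flags are scanner output of Agilent Feature Extraction 10.7.1.1, for probes designed on the JGI 4.1 build. The background correction behind the processed intensity is one that the sources used here do not give. The log2 values of the authors' deposited table, of which no processing step is stated, served as an alternative. RNA was extracted with TRIzol, per the labels' protocols.

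Control and outlier spots were left out, log2 processed intensities of a probe's spots (at most 2) averaged, and each array's 75th percentile over probes subtracted. Probes well above background on 3 or more arrays of either group were tested (25652 of 32899) with limma 3.58.1 in R 4.3.3, two-sided, with group as the only term and Benjamini-Hochberg adjustment over all probes tested. Intervals are 95% limma intervals, not adjusted for the choice of genes. The number of arrays limits the precision. An "at least" fold sets the brighter group's mean against, per array of the dimmer group, whichever is higher of that probe's signal and the dimmest signal that was well above background; it bounds the dim signal and not the spread between arrays. Normexp used median spot and background intensities, with an offset of 50.

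Accessions without versions were matched to the RefSeq gene table of UCB_Xtro_10.0, for names only, since its build differs: 5891 probes matched and 4872 had a symbol. Where a gene had several probes, the brightest on average stood for it. Members, lists, tests and rules were chosen with earlier results of these data known. The rule for named members took the lowest p in each direction and role, the extremes of spread, probes dim in one group and the lowest p for slide, which gave 27, of which 1 is not reported here. The other members are given to account for all of them. The procedure was tested on simulated data. Same-numbered arrays deviated together with correlations of 0.30 and 0.36 for numbers 1 and 2, and -0.057 and -0.033 for numbers 3 and 4, and no label pairs them, so arrays were not treated as pairs.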

Additional observations from a re-analysis of the deposited data

Results flagged for a closer look

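For itga6, a chain of laminin receptors, control array 3 stood apart at a level of 0.90, against 0.42 to 0.47 on the other 3 control arrays. The finasteride levels ran from 0.08 to 1.06. Of the 78 groups of 4 arrays examined this way, 1 stood apart, and chance gives about 1 in 20.

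Further dim genes outside the comparison were well above background on finasteride arrays and on 0 of 4 control arrays. The integrin alpha chain itgad was so on 1 of 4 finasteride arrays, the gelatinase mmp9.2 on 2 and the short-chain collagen col8a2 on 2. Levels of col8a2 were -5.37, -6.51, -5.48 and -4.64 on finasteride arrays 1 to 4, against -6.42, -7.92, -6.68 and -6.38 on control arrays 1 to 4. Finasteride array 2 lay among the controls. With no filter on dim probes, the limma adjusted p was 0.947 for mmp9.2 and 0.984 for col8a2.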

How the results depend on the processing

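Under each of 23 alternatives fixed for them, no member passed the adjusted limma threshold, and the lowest adjusted p was 0.587 (mmp13l). Of 591 fold changes of 26 named members under alternatives, 554 kept their sign, and 8 members kept it under all of these that gave a value: col4a1, itgb3, itgb4, lama4, lamb2, mmp13l, mmp21 and mmp24. Of these members, itgb4 and mmp13l passed the filter through the finasteride arrays alone, the group in which they were higher. They gave no value where probes had to be well above background on all arrays, so their kept sign is no support for a difference. Normexp with arrays centred, chosen after seeing the data, is not among the alternatives counted. Of 408 fold changes of named pathway genes under alternatives, 396 kept their sign and 0 passed. Several alternatives could not turn a sign. A block for slide or replicate, another variance prior and a changed filter leave a gene's fold change as reported. Averaging over probes or using only specific probes changes nothing for a gene with a single specific probe. Both counts of kept signs include these settings and so overstate how far the signs were tested. Over all alternatives 0 to 3 members had an unadjusted p under 0.05. The most were 3 without finasteride array 4 (7.69%, against 4.98% of all probes) and 3 of 49 with no filter (6.12%, against 4.60%). Members whose groups did not overlap numbered 0 in the reported fit. Within slides, where 2 arrays face 2, they numbered 11 (28.2%, against 28.4% of all probes) on slide 1 and 6 (15.4%, against 20.3%) on slide 2. With the replicate block, 0 members were called. Each replicate number holds an array of each group, so this block leaves every difference unchanged. The 17 of 39 above 0 were thus fixed in advance.

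After normexp, which put the median of all probes at 0.23, 36 members were above 0, the members' median was 0.20 and 15 were above their own mean on finasteride array 2. Values whose sign then differed were adamts5 0.91, adamts6 0.025, adamts8 0.24, adamtsl5 0.66, col27a1 0.12, col6a1 0.14, itga4 0.095, itgb3bp 0.093, mmp28 0.33, timp3 0.092, frem1 0.54, hapln2 0.45, klkb1 0.20, mmrn2 0.042, plod2 0.60, smad7 0.83 and smurf1 0.68. Of the 10 named members among them, 7 had the reported sign again once arrays were centred, all but adamts5, adamtsl5 and mmp28. Centring instead turned col4a1 (-0.13), col4a5 (-0.076), col12a1 (-0.17), lama1 (-0.081), lama4 (-0.13) and thbs1 (-0.24). Within slide 1 they were col4a2 -0.27, col4a5 -0.051, bmp1 0.0054, plg -0.073 and smurf1 0.038. Within slide 2 they were adamts5 0.062, adamts7 0.068, col6a1 0.20, itgb3bp 0.27 and thbs1 -0.0073. With array weights they were adamts5 0.057, adamtsl5 0.043, col6a1 0.24, col8a1 0.026 and bmp1 0.037. For itgb3bp, the values were 0.017 with quantile normalization, 0.019 with median scaling and 0.018 from the authors' deposited table. The cause of these turns was not tested.

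Leaving out 1 array at a time gave 14 to 24 members above 0. Values then ran from -0.53 to 0.039 for adamts5, -0.16 to 0.028 for adamtsl5, -0.048 to 0.20 for col12a1, -0.031 to 0.34 for col4a2, -0.28 to 0.21 for col6a1, -0.028 to 0.27 for fbn1, -0.16 to 0.16 for itgb3bp, -0.0062 to 0.28 for lama1, -0.034 to 0.14 for thbs1 and -0.16 to 0.028 for bmp1. Without a change of sign, values also ran widely for col27a1 (-0.39 to -0.072), col4a5 (0.032 to 0.46), mmp24 (-0.33 to -0.031) and mmp28 (-0.57 to -0.20). Signal over background limits itgb4, mmp13l, adamts5 and adamts20.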
